A study of Mus musculus with 20 samples.

Results

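Phase II conjugation enzymes attach a polar group to drugs, pollutants, bilirubin, bile acids and steroids so that they can leave the liver in bile or urine. The genes described here belong to 3 enzyme superfamilies and were chosen by gene symbol: UDP-glucuronosyltransferases (Ugt1a, Ugt2 and Ugt3 genes), sulfotransferases (Sult genes) and glutathione S-transferases (Gsta, Gstm, Gstp, Gstt, Gstk, Gsto and Gstz genes). The naming rule found 63 rows of the count table, and 54 of them, with 10 or more counts summed over the 20 livers, were tested among 15522 genes. The 54 members were 19 Ugt genes (9 Ugt1, 8 Ugt2 and 2 Ugt3), 14 Sult genes and 21 Gst genes. The 9 rows under 10 counts were Sult1c1, Sult2a3, Sult2a4, Sult2a5, Sult2a6, Sult3a2, Sult6b2, Ugt2a1 and Ugt2a2. A further 12 members averaged under 1 CPM (counts scaled to a common library size), which leaves 42 members at 1 CPM or above. The 12 enter the counts, medians and sums of families below. Of them Ugt1a2, Ugt1a7c, Ugt1a8, Ugt1a10, Sult4a1 and Sult2b1 are also named.

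The livers came from male C57BL/6J mice that were 8 weeks old when a high-fat diet (HFD) with 42% of calories from fat began, and that stayed on it for 12 weeks. At 10 weeks of age each mouse received 1 oral gavage of corn oil (HFD control), Aroclor 1260 at 20 mg/kg, PCB 126 at 20 µg/kg, or both compounds together (the combined group). Messenger RNA of 5 livers per group was sequenced, 20 in all. Aroclor 1260 is a commercial mixture of mostly non-dioxin-like polychlorinated biphenyls (PCBs), and PCB 126 is a single dioxin-like congener. HFD and corn oil were shared by all groups, and no lean-diet liver was analysed here. Whole liver was used, so fewer cells of a type and less RNA per cell cannot be told apart.

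UDP-glucuronosyltransferases sit in the endoplasmic reticulum and transfer glucuronic acid from UDP-glucuronate. The Ugt1a genes share their last exons and differ in a first exon with its own promoter, so that 1 locus encodes enzymes with different substrates; Ugt1a1 is the bilirubin-conjugating form. Sulfotransferases take sulfate from 3′-phosphoadenosine-5′-phosphosulfate (PAPS), and glutathione S-transferases couple electrophiles to glutathione. Dioxin-like compounds act through the aryl hydrocarbon receptor (AhR), whose best-known liver targets are Cyp1a1 and Cyp1a2, and Ugt1a6 is a classical member of the same gene battery. The constitutive androstane receptor (CAR) and the pregnane X receptor (PXR) are known regulators of Ugt1a1, Ugt1a9, several Sult genes and Gst genes, and NRF2 of many Gst genes.

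The libraries held 21836506 to 36854887 counts, of which the members took 0.941 to 1.45%. The exposure markers followed the labels in part. Cyp1a2 was 249 to 517 CPM in HFD control, 1120 to 2601 CPM with PCB 126 (log2 fold change 2.04, edgeR adjusted p = 0.000294) and 537 to 992 CPM in the combined group (1.00, adjusted p = 0.00325). Cyp1a1 was 0.219 to 0.940 CPM in HFD control, 4.09 to 314 CPM with PCB 126 (6.93, adjusted p = 0.0095) and 0.792 to 2.62 CPM in the combined group, where it was not called. Hepatocyte markers (Alb, Apoa1 and 6 others) summed to 86026 to 121791 CPM in all mice. Some libraries stood apart. HFD control replicate 4 and combined replicate 4 carried transcripts of adrenal cortex: 7 such genes summed to 2022 and 1734 CPM, against 1.28 to 3.46 CPM in the other 18 libraries, and HFD control replicate 4 also had 41.8 CPM of skeletal muscle genes against at most 1.44 CPM elsewhere. Results that rest on these libraries are given with and without them. The libraries also differed in how counts depended on the GC content of genes. Against the mean of all libraries, the slope per 10 percentage points of GC was -0.00319 to 0.506 log2 units in HFD control, -0.113 to 0.149 with Aroclor, -0.102 to 0.409 with PCB 126 and -0.682 to -0.128 in the combined group, so that the HFD control and combined groups did not overlap. Calls of members in the combined group are therefore given as counted and after a correction of every library for GC content.

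The first exons of the Ugt1a genes start from separate promoters along chr1. The called members that were higher by the largest fold in the combined group, Ugt1a9 and Ugt1a10, came from this locus. Ugt1a10 averaged only 0.533 CPM, with 306 counts in all 20 livers together. The 130 bases before the RefSeq start of 4 Ugt1a genes are printed, namely those whose promoters matched the motif marked below. The sequences are from RefSeq on GRCm38.p6, plus strand, at chr1:88055281-88055410 (Ugt1a10), chr1:88070649-88070778 (Ugt1a9), chr1:88134679-88134808 (Ugt1a6a) and chr1:88211829-88211958 (Ugt1a1). Capitals mark GTTAAT or its reverse complement, an AT-rich motif known from many liver promoters.
Ugt1a10: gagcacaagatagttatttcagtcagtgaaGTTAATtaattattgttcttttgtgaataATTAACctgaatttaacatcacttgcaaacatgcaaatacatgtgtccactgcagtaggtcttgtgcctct
Ugt1a9: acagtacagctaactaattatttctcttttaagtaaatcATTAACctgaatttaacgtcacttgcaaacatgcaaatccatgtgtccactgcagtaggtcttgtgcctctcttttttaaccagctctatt
Ugt1a6a: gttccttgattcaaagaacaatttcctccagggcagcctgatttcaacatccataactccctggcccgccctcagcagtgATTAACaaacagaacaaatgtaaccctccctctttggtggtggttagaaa
Ugt1a1: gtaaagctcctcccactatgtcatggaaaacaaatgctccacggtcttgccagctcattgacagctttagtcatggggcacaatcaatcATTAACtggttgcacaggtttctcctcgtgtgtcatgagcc
Ugt1a10 and Ugt1a9 shared an unbroken run of 32 bases, whereas the other pairs of these 4 sequences shared at most 10. A RefSeq promoter of 300 bases (250 before to 50 after the start) was found for 46 of the 54 members and was searched on both strands. GTTAAT was in 9 of 46 member promoters (19.6%) and in 7.10% of all 32851 promoters. The promoters of Ugt1a2, Ugt1a5, Ugt1a7c and Ugt1a8 held no match to it, and no promoter was found for Ugt1a6b. The longer GTTAATNAT, each match of which contains the shorter motif, was in 4 of 46 (8.70%: Sult1d1, Ugt1a1, Ugt1a10 and Ugt1a9) and in 0.801% of all promoters. GCGTG, the core of the AhR response element, was in 11 of 46 (23.9%) against 32.4% of all, and TGACNNNGC, the core of the antioxidant response element, was in 3 (6.52%: Gsta3, Gstm5 and Gstm7) against 12.4%. The 4 Ugt1a promoters printed here held no GCGTG in the searched window, whereas those of Ugt1a5 and Ugt1a8 at the same locus did. These matches are letters in a window and no binding was measured.

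In HFD control livers the highest level per kb of exon within each family was found for Gstm1 (757 ± 349 CPM per kb, SD, n = 5), Ugt2b5 (414 ± 38.9), Sult2a8 (329 ± 78.3), Gsta3 (302 ± 125), Gstz1 (224 ± 35.1), Gstt1 (211 ± 73.5), Gstp1 (164 ± 81.2), Ugt3a2 (138 ± 24.3) and Ugt1a1 (99.9 ± 19.4). Per kb of exon that does not overlap other genes of the locus, Ugt1a1 was 243 ± 47.3 CPM per kb, which placed its mean above those of Gstz1, Gstt1, Gstp1 and Ugt3a2. Gstm1 encodes a mu-class transferase, Ugt2b5 an abundant hepatic glucuronosyltransferase and Gstz1 the maleylacetoacetate isomerase of tyrosine breakdown. Several neighbours in this order did not differ beyond their spread: Ugt2b36 (381 ± 48.4 CPM per kb) overlapped Ugt2b5, Sult1a1 (290.4 ± 40.5), the main phenol sulfotransferase, overlapped Sult2a8, and Gstk1 (176 ± 29.3) overlapped Gstz1. Summed over members, HFD control livers held 4194 ± 614 CPM of Ugt, 1726 ± 232 CPM of Sult and 5118 ± 1441 CPM of Gst transcripts. These levels were not corrected for the GC content of the genes, which was 53.9% for Gstm1 and 39.9% for Ugt2b5. Near-identical sequence also limits some of these levels. The share of 75-base words found in another gene was 84.7% for Gsta1, 78.8% for Ugt1a1, 74.8% for Ugt1a6b, 50.1% for Gstp2, 36.6% for Gsta2, 30.4% for Ugt2b5, 29.2% for Gstp1, 28.0% for Ugt2b38 and 11.7% for Gstm1, and reads in the shared Ugt1a exons could not be assigned to 1 gene, so counts of Ugt1a genes come mainly from their first exons.

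**Figure D1:**
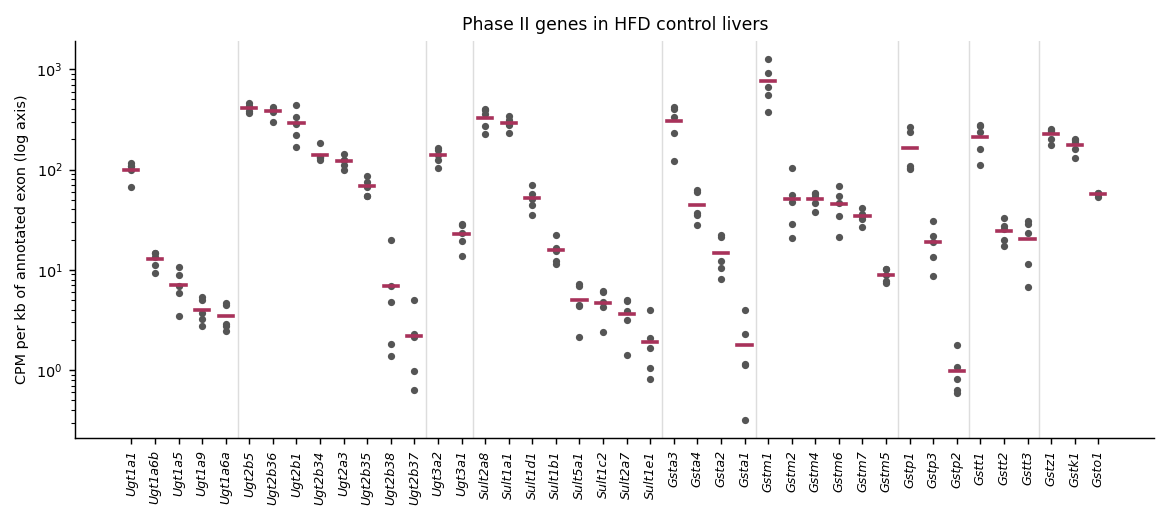
CPM per kb of exon (log axis) of the members in HFD control livers, by family; each point is 1 mouse and each line the mean of 5. Gstm1 has the highest mean, 757 CPM per kb, and the 5 mice of Gstm1 and Gsta3 are spread more widely than those of Ugt2b5 or Gstz1.

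Neither compound alone changed a member past the threshold of an adjusted p under 0.05 in edgeR's quasi-likelihood test. With Aroclor 0 of 54 members were called, against 0% of all genes; 9 members (16.7%) had an unadjusted p under 0.05, where 17.2% of all genes had, and DESeq2 also called 0, against 0.87% of all genes. With PCB 126 0 of 54 were called, against 0.116% of all genes; 7 members (13.0%) had an unadjusted p under 0.05, where 14.7% of all genes had, and DESeq2 called 3 (5.56%, against 2.06% of all genes), all higher: Sult1e1 (adjusted p = 0.00131), Ugt1a9 (0.00499) and Ugt2b34 (0.0335). In the combined group 19 of 54 were called, against 32.8% of all genes, so the share of members called (14 higher and 5 lower) was close to that of all genes. The 14 higher members were 25.9% of the 54, where 15.8% of all genes were called higher, and the 5 lower members were 9.26%, where 17% of all genes were called lower. All 14 higher members were Ugt or Sult genes (11 and 3), and all 5 lower members were Gst genes. After the GC correction 3 of the 54 were called against 9.46% of all genes: Ugt1a9 and Ugt1a10 higher, and Ugt2b5 lower. Without the 2 libraries with adrenal transcripts 16 of 52 tested members (30.8%) were called, 12 higher and 4 lower, against 30.4% of all genes, and with the GC correction added 0 were, against 4.74%. Without HFD control replicate 1 the count was 12.

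**Figure D2:**
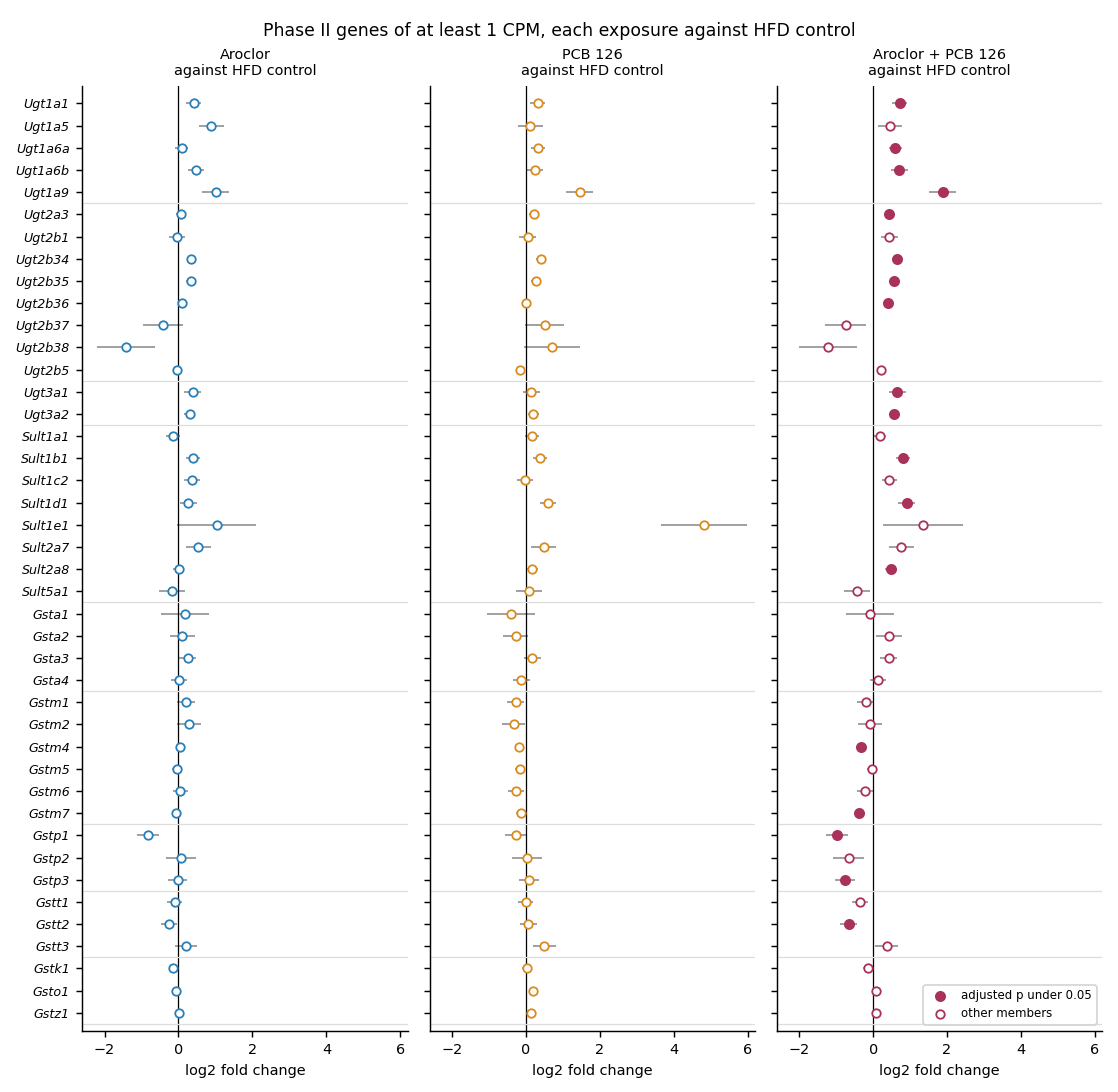
log2 fold change of the 42 members of at least 1 CPM against HFD control, with standard error, for Aroclor, PCB 126 and the combined group; filled points passed an adjusted p under 0.05. Filled points appear in the combined group alone, above 0 for Ugt and Sult genes and below 0 for Gst genes.

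The groups of mice overlapped for nearly all members after a single exposure. With Aroclor 0 members were higher in all 5 mice than in all 5 HFD control mice (1.74% of all genes) and 1 was lower (Sult4a1, under 1 CPM, where 1.2% of all genes were). With PCB 126 0 members were higher without overlap (1.23% of all genes) and 0 lower (0.908%). In the combined group 7 of 54 members were higher without overlap (13.0%, against 10.6% of all genes), namely Ugt1a1, Ugt1a6b, Ugt1a9, Ugt2b34, Ugt2b36, Ugt3a1 and Ugt3a2, and 0 were lower (8.14% of all genes). All 7 were UDP-glucuronosyltransferases.

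The median log2 fold change of the 19 Ugt genes was 0.33 with Aroclor, 0.32 with PCB 126 and 0.60 in the combined group, where the median of all genes was -0.00; after the GC correction the combined median was 0.19. Before that correction 11 of these 19 genes (57.9%) were called higher in the combined group, where 15.8% of all genes were. None was called lower, where 17% of all genes were. Summed Ugt transcripts were 4194 ± 614 CPM in HFD control and 5789 ± 726 CPM in the combined group (SD, n = 5 each). These sums were not corrected for GC content, and the groups overlapped (3500 to 5093 and 4778 to 6748 CPM). The Ugt2 genes alone summed to 3411 ± 492 and 4565 ± 616 CPM. Within the Ugt1 family all 9 genes had a fold change above 0 in each of the 3 comparisons with HFD control. These comparisons share their control mice. After GC correction 8 of the 9 were above 0 with Aroclor, and 9 with PCB 126 and in the combined group. The medians were 0.48 for Aroclor, 0.36 for PCB 126 and 0.86 for the combined group (0.37, 0.30 and 0.57 after GC correction). Of the 9 genes 4 averaged under 1 CPM. Among these Ugt1a8 had 10 counts in all and 0 in each HFD control liver, which fixed its direction. Counts summed over all Ugt1a genes rose by a log2 fold change of 0.76 in the combined group (SE 0.18, adjusted p = 0.00462). The GC-corrected value was 0.53 (adjusted p = 0.042). Ugt1a1 gave 169218 of the 228495 counts in this sum, and reads left out at counting because they fell in shared exons are not in it. The sum was not called with Aroclor (0.46, adjusted p = 0.236) or PCB 126 (0.35, adjusted p = 0.374).

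Ugt1a9 (chr1:88070800-88218997), which conjugates phenols and many drugs, was the called member of at least 1 CPM with the largest rise. It was 7.03, 11.7, 10.9, 6.01 and 8.17 CPM in the 5 HFD control livers. With Aroclor it was 25.1, 9.33, 8.84, 20.3 and 24.7 CPM, and with PCB 126 19.6, 19.6, 8.94, 31.5 and 40.9 CPM. In the combined group it was 32.8, 22.9, 21.4, 49.3 and 35.0 CPM. Every combined liver lay above every HFD control liver, whereas 2 Aroclor livers and 1 PCB 126 liver fell within the HFD control range. The combined log2 fold change was 1.88 (SE 0.37, adjusted p = 0.00138), a 3.68-fold rise, and it was called in each of the 10 fits that left out 1 of these mice. It was 1.56 after GC correction (adjusted p = 0.0116), 1.55 without the 2 libraries with adrenal transcripts (adjusted p = 0.00628) and 1.25 with both (adjusted p = 0.0571). With PCB 126 the log2 fold change was 1.46 (SE 0.36, adjusted p = 0.0844; 0.0296 without PCB 126 replicate 3) and with Aroclor 1.01 (SE 0.36, adjusted p = 0.212). Ugt1a9 was also taken as a percentage of Ugt1a1 CPM in the same liver, a ratio chosen after their values were seen. The percentage was 2.48 to 5.32% in HFD control and 5.53 to 15.5% in the combined group, with no overlap. The lowest HFD control and the highest combined value came from the 2 libraries with adrenal transcripts. Without them the ranges were 3.41 to 5.32% and 5.53 to 9.31%, a narrow separation. That percentage was 3.69 to 7.95% with Aroclor and 4.55 to 15.4% with PCB 126, both overlapping HFD control. Over whole transcripts the GC content was 45.6% for Ugt1a9 and 47.2% for Ugt1a1. These values include the shared last exons, and the GC content of the first exons alone was not computed.

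**Figure D3:**
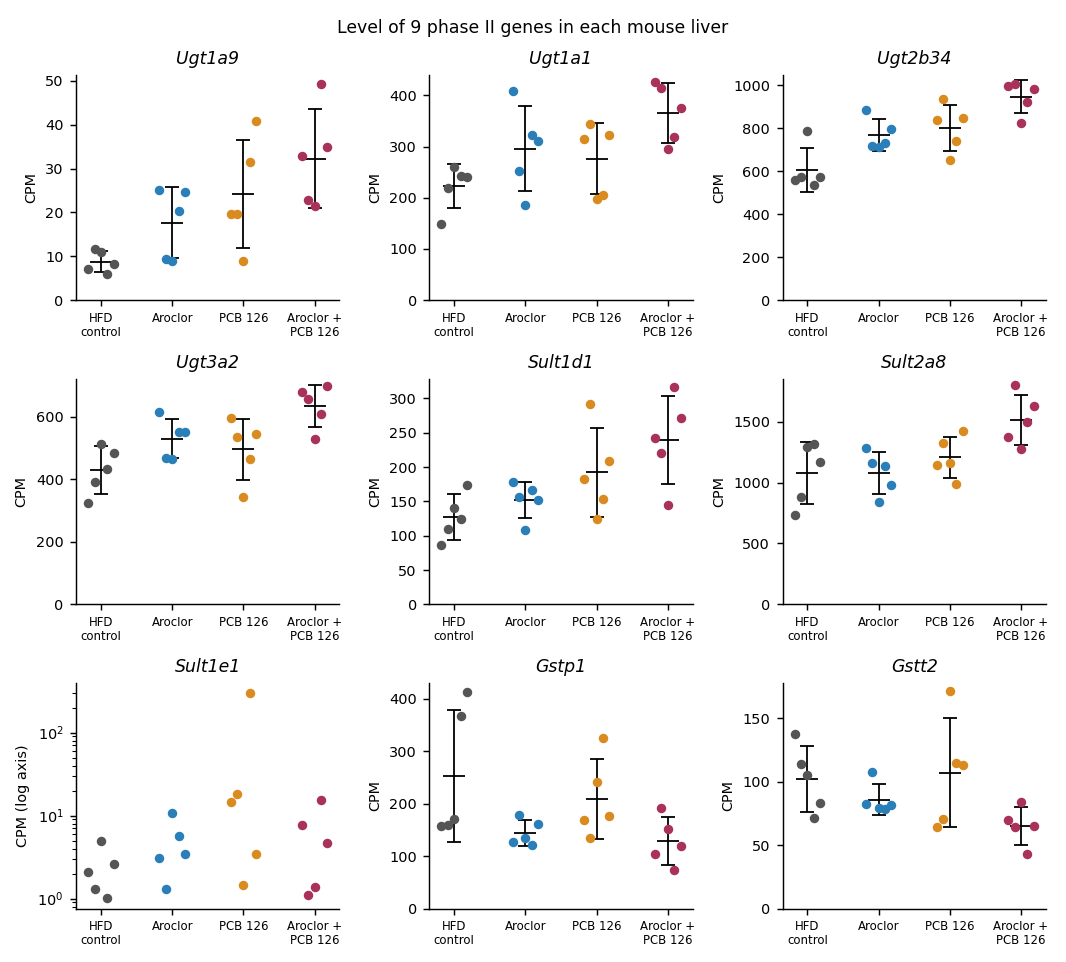
Normalised CPM of 9 members in each mouse by group, with the mean and SD of 5 mice as a line and bar (no mean for Sult1e1, which is on a log axis). All 5 combined livers lie above all 5 HFD control livers for Ugt1a9 and Ugt1a1, and PCB 126 replicate 4 stands alone at 298 CPM of Sult1e1.

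Ugt1a1 (chr1:88211959-88218997) was 149, 219.5, 259.9, 243 and 239.7 CPM in HFD control and 427, 415, 295, 318 and 376 CPM in the combined group. With Aroclor it was 408, 253, 185, 323 and 310.2 CPM and with PCB 126 314, 344, 197, 205 and 323 CPM. The combined livers were all above the HFD control livers, and both single exposures overlapped them. The combined log2 fold change was 0.72 (SE 0.20, adjusted p = 0.00967), or 0.50 after GC correction (adjusted p = 0.0803).

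The AhR battery gene Ugt1a6a was 20.2, 19.4, 11.8, 10.7 and 12.3 CPM in HFD control and 18.2, 20.7, 27.3, 20.98 and 26.1 CPM in the combined group. One combined liver fell within the HFD control range. With PCB 126, the AhR ligand, Ugt1a6a was 22.01, 13.7, 20.1, 15.6 and 22.9 CPM, which overlapped HFD control. It rose in the combined group (log2 fold change 0.60, SE 0.18, adjusted p = 0.0168; 0.31 and 0.342 after GC correction). Its neighbour Ugt1a6b was 22.2 to 35.4 CPM in HFD control and 39.7 to 58.7 CPM in the combined group without overlap (0.71, SE 0.22, adjusted p = 0.0177; 0.49 and 0.123 after GC correction), and lost the call without HFD control replicate 1 (adjusted p = 0.0522). Ugt1a10, which averaged under 1 CPM, was also called higher (log2 fold change 1.35). It was 0.183 to 0.572 CPM in HFD control and 0.525 to 1.20 CPM in the combined group, so the groups overlapped. Ugt1a5 was not called in any comparison. Its mean was 15.7 ± 6.10 CPM in HFD control, 29.2 ± 6.36 with Aroclor, 17.1 ± 9.33 with PCB 126 and 21.6 ± 2.96 in the combined group.

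The Ugt2 genes of chr5 conjugate steroids, bile acids and xenobiotics. Ugt2b34 was 560.0, 575, 789, 538 and 573 CPM in HFD control and 999, 1009, 824, 924 and 985 CPM in the combined group. The groups did not overlap, and HFD control replicate 3 was the closest to the combined livers. Ugt2b34 rose by a log2 fold change of 0.64 (SE 0.12, adjusted p = 0.00104) as counted, and the value was 0.04 after GC correction (adjusted p = 0.869); its exons are 39.7% GC. With Aroclor it was 712 to 887 CPM (0.34, adjusted p = 0.202) and with PCB 126 653 to 935 CPM (0.40, adjusted p = 0.132), each overlapping HFD control at replicate 3 only; without that mouse the PCB 126 adjusted p was 0.0453.

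Ugt2b36 was 834, 868, 824, 615 and 779 CPM in HFD control and 971, 1150, 871, 1082 and 1085 CPM in the combined group. The lowest combined liver was just above the highest HFD control liver. The log2 fold change was 0.40 as counted (SE 0.12, adjusted p = 0.0169), -0.15 after GC correction (adjusted p = 0.531) and 0.29 without the adrenal libraries (adjusted p = 0.0936); leaving out combined replicate 4 alone gave an adjusted p of 0.0646. Ugt2b35 (0.55, adjusted p = 0.00435) and Ugt2a3 (0.43, adjusted p = 0.0234) were also called higher as counted, and both were -0.06 after GC correction. Ugt2a3 lost its call when any of HFD control replicates 1 and 2 or combined replicates 1, 2 and 5 was left out (adjusted p 0.0502 to 0.0767). Ugt2b5, the most abundant Ugt transcript per kb, was not called as counted (0.20, adjusted p = 0.139). It was called lower after GC correction (-0.38, adjusted p = 0.0221), and that adjusted p became 0.0530 without the adrenal libraries. After the correction 1 of the 8 Ugt2 genes had a fold change above 0, with a family median of -0.13. Ugt2b38, which shares sequence with Ugt2b5, varied more between mice than between groups. It was 3.42, 2.596, 9.0003, 37.2 and 13.0 CPM in HFD control, with the highest value in the mouse that also carried adrenal transcripts, and 59.4 CPM in PCB 126 replicate 4.

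The Ugt3 enzymes are known to use other sugars than glucuronic acid. Ugt3a2 (chr15:9335550-9370955) was 325, 390.1, 514, 434 and 485 CPM in HFD control and 680.4, 656, 529.7, 609 and 698 CPM in the combined group. The groups did not overlap, by a margin that was narrow for the third mouse of each. The log2 fold change was 0.56 (SE 0.14, adjusted p = 0.00546) as counted and 0.05 after GC correction (adjusted p = 0.814). Ugt3a1 was 36.8 to 76.0 CPM in HFD control and 77.5 to 108 CPM in the combined group (0.66, SE 0.22, adjusted p = 0.0262; 0.28 and 0.340 after GC correction). Its call was lost without HFD control replicate 1 or 2, or without combined replicate 2, 4 or 5 (adjusted p 0.0541 to 0.0744), and without both adrenal libraries (0.0554).

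The 14 Sult genes, 6 of which averaged under 1 CPM, had a median log2 fold change of -0.05 with Aroclor and 0.21 with PCB 126. In the combined group the median was 0.26, or -0.14 after GC correction. Summed Sult transcripts, not corrected for GC content, were 1726 ± 232 CPM in HFD control and 2366 ± 338 CPM in the combined group. The groups overlapped (1411 to 1971 and 1854 to 2603 CPM). Of the 14, 3 (21.4%) were called higher in the combined group as counted, where 15.8% of all genes were, and 0 lower, where 17% were. These 3 are of low GC content, 33.5 to 37.8%, and after GC correction 0 of the 14 were called. Sult1d1, which sulfates catecholamines in mice, was 87.0, 109.7, 141, 124 and 174 CPM in HFD control and 242, 219.8, 145, 317 and 272 CPM in the combined group. One combined liver lay inside the HFD control range. Its log2 fold change was 0.91 (SE 0.23, adjusted p = 0.00504), or -0.08 after GC correction. Sult1b1, a thyroid hormone and phenol sulfotransferase, was 43.2, 45.9, 61.9, 34.04 and 31.9 CPM in HFD control and 80.5, 73.9, 53.2, 92.7 and 78.4 CPM in the combined group. Again 1 combined liver, replicate 3, overlapped (0.80, SE 0.20, adjusted p = 0.00448; 0.03 after GC correction). Sult2a8, a hepatic hydroxysteroid and bile acid sulfotransferase, was 737 to 1314 CPM in HFD control and 1276 to 1799 CPM in the combined group (0.49, SE 0.16, adjusted p = 0.0212; -0.20 after GC correction), and its adjusted p was 0.0508 to 0.0728 without HFD control replicate 1 or 2 or combined replicate 2, 4 or 5.

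Sult1e1 (chr5:87575969-87591594), the estrogen sulfotransferase, had the widest fold range of the 42 members of at least 1 CPM. It was 2.06, 1.31, 4.92, 1.01 and 2.62 CPM in HFD control and 3.13, 1.31, 10.7, 5.60 and 3.47 CPM with Aroclor. With PCB 126 it was 14.4, 18.1, 1.46, 298 and 3.45 CPM. In the combined group it was 7.66, 1.11, 1.36, 15.4 and 4.69 CPM. A single PCB 126 liver, replicate 4, was far above all 19 others, and PCB 126 replicates 1 and 2 were also above every HFD control liver. The same replicate 4 had the highest Cyp1a1 of all mice, 314 CPM. The PCB 126 log2 fold change was 4.81 (SE 1.16, adjusted p = 0.0739). It was 1.98 without replicate 4 (adjusted p = 0.274) and 5.13 without replicate 3 (adjusted p = 0.0333).

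Summed Gst transcripts were 5118 ± 1441 CPM in HFD control and 5208 ± 363 CPM in the combined group. The median log2 fold change of the 21 genes was 0.01 with Aroclor, -0.12 with PCB 126 and -0.15 in the combined group (-0.12 after GC correction). Of these 21 genes 5 (23.8%) were called lower in the combined group as counted, where 17% of all genes were. As counted 0 were called higher (15.8% of all genes), and 0 were called after GC correction (9.46% of all genes). The Gsta genes, alpha-class transferases that also handle lipid peroxides, were not called. Gsta3 was 1818, 1762, 1442, 534 and 1004 CPM in HFD control, with the lowest value in the mouse with adrenal transcripts, and 1963, 1691, 1571, 1797 and 1763 CPM in the combined group (0.42, SE 0.23, adjusted p = 0.171; -0.03 after GC correction).

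All 6 Gstm genes had a fold change below 0 with PCB 126 (median -0.23) and in the combined group (median -0.21, or -0.12 after GC correction). Of the 6, 2 (33.3%) were called lower in the combined group as counted, where 17% of all genes were. Gstm4 was 100.1, 96.9, 91.6, 64.2 and 79.6 CPM in HFD control and 75.7, 65.1, 78.8, 55.2 and 68.6 CPM in the combined group (-0.33, SE 0.12, adjusted p = 0.0339). The groups overlapped, and in each the lowest liver was the one with adrenal transcripts. The Gstm4 call was lost in 6 of 10 fits that left out 1 mouse: HFD control replicate 1, 2 or 3, or combined replicate 2, 4 or 5 (adjusted p 0.0547 to 0.0987). Gstm7 was 42.7 to 65.7 CPM in HFD control and 36.1 to 51.3 CPM in the combined group (-0.37, SE 0.11, adjusted p = 0.0162; 0.0583 without HFD control replicate 1). After GC correction the values were -0.20 and -0.19, and neither was called. Gstm1 was 1876, 1346, 991, 551 and 809 CPM in HFD control and 1232, 785, 1127, 906 and 791 CPM in the combined group, which lay wholly within the HFD control range (-0.20, adjusted p = 0.558).

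Gstp1 (chr19:4035407-4037985), the main pi-class transferase, was 158, 159, 169.9, 367 and 413 CPM in HFD control. It was 127, 177, 134, 120.5 and 161 CPM with Aroclor, 168, 134, 241, 326 and 176 CPM with PCB 126 and 105, 192, 151, 72.8 and 119 CPM in the combined group. HFD control replicates 4 and 5 stood above the other HFD control livers, and 1 combined liver was above the other 3 of them. The combined log2 fold change was -0.98 (SE 0.30, adjusted p = 0.0162), -0.74 without HFD control replicate 5 (adjusted p = 0.0608), -0.68 without the adrenal libraries (adjusted p = 0.0925) and -0.63 with the GC correction (adjusted p = 0.196). With Aroclor it was -0.82 (SE 0.30, adjusted p = 0.215). Gstp3 was 7.94 to 28.1 CPM in HFD control and 6.26 to 13.6 CPM in the combined group (-0.76, SE 0.27, adjusted p = 0.0326; -0.38 after GC correction), and its call was lost without HFD control replicate 1 or 3 or combined replicate 4 or 5 (adjusted p 0.0651 to 0.140; -0.51 without HFD control replicate 1). Counts summed over Gstp1, Gstp2 and Gstp3, of which Gstp1 and Gstp2 share sequence, gave -0.97 (SE 0.28, adjusted p = 0.0112; -0.61 and 0.167 after GC correction).

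Gstt2, a theta-class transferase, was 138, 114, 105, 71.8 and 83.3 CPM in HFD control and 70.0, 64.1, 83.7, 42.8 and 64.7 CPM in the combined group. The groups overlapped through HFD control replicates 4 and 5 and combined replicate 3. The log2 fold change was -0.65 (SE 0.23, adjusted p = 0.0332; -0.51 and 0.129 after GC correction). Its call was lost without HFD control replicate 1, 2 or 3, or without combined replicate 2, 4 or 5 (adjusted p 0.0546 to 0.103). Gstt1 was 169 to 424 CPM in HFD control and 202 to 314 CPM in the combined group and was not called. Gstt1, Gstt2, Gstm4 and Gstm7 were the members lowest in both libraries with adrenal transcripts relative to the other mice of their groups, and Sult2b1, under 1 CPM, was the 1 highest in both. Among the kappa, omega and zeta transferases 0 of 4 were called: Gstz1 was 1140 ± 179 CPM in HFD control and 1205 ± 56.7 CPM in the combined group.

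The direction of the combined result followed the GC content of the genes, among members and among all genes. The median exon GC content was 43.8% for Ugt, 41.1% for Sult and 51.2% for Gst genes, and 50.2% for all genes. Below 42% GC, 53.6% of all genes were called higher and 0.0708% lower, with a median log2 fold change of 0.56; of the 17 members there, 8 were called higher and 0 lower, with a median of 0.44. Between 46 and 50% GC, 15.1% of all genes were called higher and 3.23% lower (median 0.14), and 4 of 13 members were called higher and 0 lower (median 0.60). These 13 members include every Ugt1 gene other than Ugt1a9, which is 45.6% GC. Between 50 and 54% GC 3.54% of all genes were called higher and 17.5% lower (median -0.14), and 0 of 13 members were higher and 3 lower (median -0.20). At 54% GC and above 42.3% of all genes were called lower (median -0.52), as were 2 of 6 members (median -0.71). How far the GC dependence of the libraries arose before or during sequencing was not tested.

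**Figure D4:**
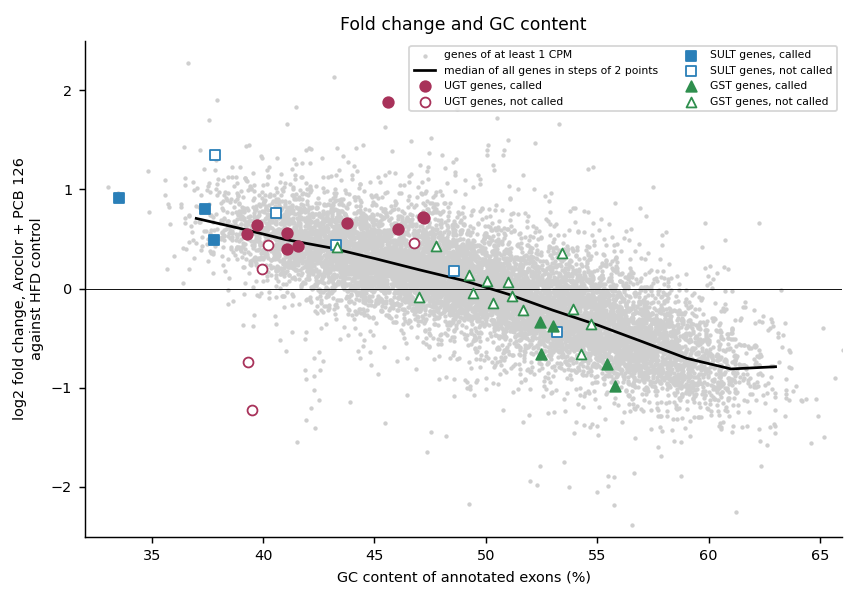
log2 fold change of the combined group against HFD control (vertical axis) by exon GC percent (horizontal axis) for 11341 genes of at least 1 CPM, with the median in steps of 2 percentage points as a line and the members coloured by superfamily; 6 genes lie outside the vertical limits of 2.5. The line falls from low to high GC, the called Ugt2 and Sult members lie close to it, and Ugt1a9 lies above it.

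**Figure D5:**
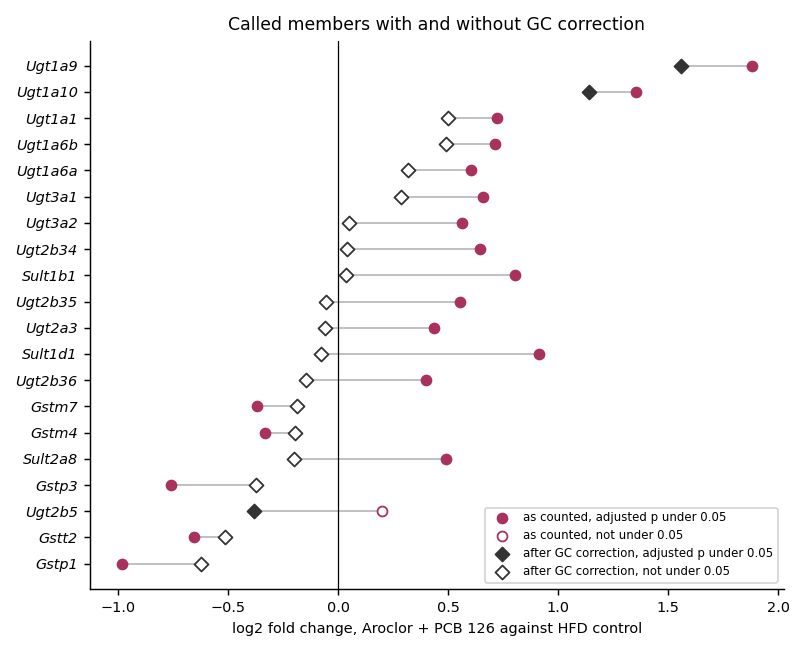
log2 fold change in the combined group of the members called with or without GC correction, as counted and after the correction, with a line joining each pair of values. Ugt1a9 and Ugt1a10 keep a filled point after correction, Ugt2b5 gains one below 0, and the other 17 have open points.

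Against the single exposures, the combined group differed in few members. Against Aroclor 0 of 54 were called, where 0.412% of all genes were; 14 (25.9%) had an unadjusted p under 0.05, where 23.4% of all genes had, and DESeq2 called 6 (11.1%, against 8.65% of all genes). Against PCB 126 5 of 54 were called, where 16.7% of all genes were, and 0 after GC correction, with 0% of all genes. Ugt2b5 was 792, 1068, 779, 816 and 963 CPM in the combined group and 778, 649.8, 656, 674 and 713 CPM with PCB 126, a narrow separation without overlap (0.35, SE 0.10, adjusted p = 0.0283; -0.07 after GC correction). Ugt2b36 was 871 to 1150 CPM in the combined group and 722 to 1027 CPM with PCB 126, where replicate 1 stood above the other 4 mice (0.38, adjusted p = 0.0394; -0.00 after GC correction). Sult1e1 was lower (-3.46, SE 1.07, adjusted p = 0.0347), which was -0.63 without PCB 126 replicate 4 (adjusted p = 0.586). Gstp3 was 6.26 to 13.6 CPM in the combined group and 15.1 to 21.6 CPM with PCB 126, without overlap (-0.85, adjusted p = 0.0361), and Gstt2 was 42.8 to 83.7 CPM against 64.2 to 172 CPM (-0.72, adjusted p = 0.0387). Each of these 5 calls was lost in 5 to 7 of the 10 fits that left out 1 mouse, and the count of 5 became 9 without PCB 126 replicate 1, 3 without PCB 126 replicate 2 or 5, 1 without combined replicate 4, and 0 without PCB 126 replicate 3 or 4 or combined replicate 2 or 5; it was 2 of 52 (3.85%, against 9.67% of all genes) without both adrenal libraries. In the test of whether the effects of the compounds add up (the interaction on the log2 scale) 0 of 54 were called, with 0% of all genes; 4 (7.41%) had an unadjusted p under 0.05, where 11.9% of all genes had, and DESeq2 called 0, against 0.00644% of all genes. The interaction of Ugt1a9 was -0.59 (SE 0.50, adjusted p = 0.663).

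Genes that supply the cosubstrates were counted from fixed lists. As counted, 15.8% of all genes were called higher and 17% lower in the combined group, shares to set beside the list counts here and below. In the combined group, of 5 genes of UDP-glucuronate supply 2 were called higher and 0 lower (Ugp2, which makes UDP-glucose, 0.51; Ugdh, which oxidises it to UDP-glucuronate, 0.37), with a list median of 0.28 as counted and -0.01 after GC correction, when 0 of the 5 were called (Ugp2 -0.10, Ugdh 0.00). Of 6 genes of PAPS supply 2 were called higher and 0 lower, with a median of 0.16 (0.05 after GC correction, when 1 was called). Papss2, the main hepatic PAPS synthase, rose by a log2 fold change of 0.92 (SE 0.18, adjusted p = 0.00155; 0.68 and 0.0197 after GC correction). Of 11 genes of glutathione synthesis and turnover 1 was called higher (Gclm, 0.38) and 4 lower, with a median of -0.33; after GC correction the median was -0.10, 0 were called higher and 2 lower. Cbs, which starts the transsulfuration of homocysteine towards cysteine, fell by 1.17 on the log2 scale (SE 0.15, adjusted p = 0.000392; -0.92 and 0.00106 after GC correction), and Gss (-0.33), Oplah (-0.66) and Chac1 (-1.42) were the other 3. With the GC correction these were -0.18 for Gss (adjusted p = 0.167), -0.10 for Oplah (0.771), -0.88 for Chac1 (0.305) and 0.09 for Gclm (0.597), none of them called, and Ggct was called lower (-0.63, adjusted p = 0.0235). Of 18 other conjugating enzymes 4 were called higher, with a list median of 0.20 (-0.10 after GC correction). They were the methyltransferases Tpmt (0.44) and Hnmt (0.94) and the acetyltransferases Nat2 (0.77) and Nat8 (0.76, or 0.85 with the GC correction, adjusted p = 0.0221). Tpmt (0.11, adjusted p = 0.573), Hnmt (0.21, 0.564) and Nat2 (0.11, 0.696) were not called once GC content was corrected for.

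Of 12 receptors and factors 2 were called higher in the combined group, with a list median of 0.09. Arnt, the partner of AhR, rose (0.66, adjusted p = 0.00104; 0.48 and 0.00606 after GC correction), and Nr1h4, the bile acid receptor FXR, was 0.31 as counted and 0.05 after correction. Rxra (-0.54), the partner of CAR and PXR, and Keap1 (-0.54), the inhibitor of NRF2, were called lower as counted and were 0.01 and 0.13 after GC correction. Nr1i3, which encodes CAR, was not called as counted (0.47, adjusted p = 0.130) but was higher once GC content was corrected for (0.72, adjusted p = 0.037). Of the 6 AhR markers 1 was called higher (Cyp1a2) and of the 3 CAR and PXR markers 1 (Cyp3a11, 0.89, adjusted p = 0.00652; 0.32 and 0.476 after GC correction). Of 9 male-biased liver genes 2 were called lower and of 10 female-biased genes 2 higher. Among cell-type markers the combined counts (higher and lower) were 0 and 3 of 8 for hepatocytes, 0 and 0 of 5 for cholangiocytes, 1 and 0 of 7 for Kupffer cells and macrophages, 3 and 1 of 7 for stellate cells, 0 and 1 of 6 for endothelial cells, 1 and 0 of 6 for lymphocytes, 3 and 0 of 8 for pericentral and 0 and 1 of 7 for periportal hepatocytes. Stellate markers summed to 146 to 307.3 CPM in HFD control and 308.3 to 359.5 CPM in the combined group. These groups did not overlap, but the separation was narrow and the sums were not corrected for GC content. Dcn, a stellate marker of 163 CPM on average and 40.1% GC, was 0.60 as counted and -0.01 after GC correction. The sums for UDP-glucuronate supply, PAPS supply and AhR markers also did not overlap between these groups. The part of stellate cells in the results for the members was not tested. With the GC correction the counts were 0 and 1 for hepatocyte and for endothelial markers, 1 and 1 for pericentral markers, 0 and 1 for male-biased genes, and 0 and 0 for the female-biased genes and the other cell types. With Aroclor 0 genes of these lists were called, and with PCB 126 Cyp1a1 and Cyp1a2 only as counted. After GC correction Ggt6, of the glutathione list, was also called higher with PCB 126 (0.57, adjusted p = 0.0288).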

How the data were processed

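RNA of 20 livers (5 mice per group) was sequenced as stranded poly(A) libraries. Per the study's methods and the submitters' processing notes, the authors checked reads with FastQC 0.10.1, mapped them to GRCm38.p6, also called mm10 (STAR 2.6) and obtained gene counts from HTSeq 0.10.0. The deposited values are whole-number counts without normalisation; the annotation release and the strand setting are not given in the sources used here, and HTSeq by default leaves out reads that fall in exons shared by genes. Libraries went through a pair of sequencing runs, and the sources used here do not tie single libraries to a run. Each mouse was 1 replicate, and the number of libraries limits the precision; counting error is small beside the spread between mice.

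Genes with a total under 10 counts were left out, and 15522 were fitted over all 4 groups in edgeR 4.0.16 (R 4.3.3; TMM, quasi-likelihood test, 16 residual degrees of freedom). Adjusted p is Benjamini-Hochberg over all tested genes, with a threshold of 0.05 for a call. CPM are normalised by TMM, and CPM per kb use exon length from GENCODE M21. The GC correction was an offset per library from a spline (6 degrees of freedom) of log counts on exon GC percent. For Ugt1a genes that percent covers whole transcripts with the shared exons, although their counts come mainly from first exons. Alternatives were DESeq2 1.42.0, other size factors and filters (1 on FPKM computed from the counts), a GC slope covariate, length correction, a replicate block, summed counts of near-identical genes and leaving out each mouse. Leaving out the 2 libraries with adrenal transcripts, or the 4 mice of extreme GC slope, was chosen after seeing the data, as were the adrenal, adipose and muscle lists. The scripts were tested on simulated data. Of the genes in the fixed lists, 2 are not reported here. The members and lists were chosen with earlier results of these data known. Values of each mouse are given for called members of at least 1 CPM, for members called between exposures and for the highest member of a family, and Sult1e1, Ugt1a5, Ugt2b38 and the Ugt1a9 to Ugt1a1 ratio were added after their values were seen. All 40 pairs of mice of a group differed beyond sampling noise (chi-square per degree of freedom at least 18.7).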

Additional observations from a re-analysis of the deposited data

Results flagged for a closer look

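In 5 of 96 groups checked (24 members, 4 groups of mice each) 1 mouse stood far from the other 4 of its group by Dixon's test. Chance gives this in about 1 in 20 groups, so about 5 were expected. Sult1e1 in PCB 126 replicate 4 was 298 CPM, where the next mouse was 18.1 CPM. Ugt2b34 in HFD control replicate 3 was 789 CPM, above the next at 575 CPM. Ugt2b36 in PCB 126 replicate 1 was 1027 CPM, above the next at 762 CPM. Ugt1a6a in Aroclor replicate 2 was 12.2 CPM, below the next at 16.3 CPM, and Gstt2 in the same liver was 107 CPM, above the next at 82.2 CPM.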

How the results depend on the processing

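For the combined group against HFD control, 19 called members became 19 with the other 2 size factor methods and with no filter, and 20 with filterByExpr. The count was 3 with the GC correction, with length added to it, and with the replicate block and GC correction together, 1 with the GC slope as a covariate, 8 at a threshold of 0.01, 1 without the 4 mice of extreme GC slope, 0 when the GC correction was added to that, 0 with the GC correction and without the 2 adrenal libraries, and 12 to 20 without 1 mouse (12 without HFD control replicate 1). For Aroclor it was 1 with the GC slope covariate and 0 to 0 without 1 mouse. For PCB 126 it was 3 in DESeq2, 2 with the GC slope covariate, 1 without the 4 mice and 0 to 2 without 1 mouse (1 without HFD control replicate 3, 2 without PCB 126 replicate 3). Against Aroclor the combined count of 0 became 6 in DESeq2, 1 with the FPKM filter and 0 to 2 without 1 mouse (2 without combined replicate 3). Against PCB 126 the count of 5 became 1 when only those groups were fitted, 1 with the replicate block and GC correction, 2 without the adrenal libraries, 0 to 9 without 1 mouse, and 0 with the GC correction, GC and length correction, GC slope covariate, a threshold of 0.01, without the 4 mice, and with the GC correction without the 4 mice or the 2 adrenal libraries. The interaction count was 0 to 0 without 1 mouse.

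Of 656 alternative values of the called members 399 kept their direction and call, 214 lost the call and 43 reversed. With the GC correction the reversed log2 fold changes were Sult1d1 -0.0800, Sult2a8 -0.20, Ugt2a3 -0.059, Ugt2b35 -0.0579 and Ugt2b36 -0.15 against HFD control, and Ugt2b36 -0.00419 and Ugt2b5 -0.0723 against PCB 126. With GC and length they were Sult1d1 -0.0413, Sult2a8 -0.18, Ugt2a3 -0.0021, Ugt2b35 -0.0385 and Ugt2b36 -0.0834, and Ugt2b5 -0.0165 against PCB 126. With the replicate block and GC correction they were Sult1d1 -0.0844, Sult2a8 -0.21, Ugt2a3 -0.0705, Ugt2b35 -0.0566 and Ugt2b36 -0.13, and against PCB 126 Ugt2b36 -0.000882 and Ugt2b5 -0.0777. With the GC slope covariate they were Gstm4 0.0956, Gstp3 0.42, Gstt2 0.56, Sult1d1 -0.25, Sult2a8 -0.0903, Ugt1a1 -0.0433, Ugt1a6b -0.0933, Ugt3a1 -0.32 and Ugt3a2 -0.0238, and Gstt2 0.27 against PCB 126. With the GC correction and without the 4 mice they were Gstp3 0.11, Sult1d1 -0.32, Sult2a8 -0.28 and Ugt2b35 -0.0669, and Ugt2b5 -0.0207 against PCB 126. With the GC correction and without the 2 adrenal libraries they were Sult1b1 -0.12, Sult1d1 -0.19, Sult2a8 -0.13, Ugt2a3 -0.0172, Ugt2b34 -0.00317, Ugt2b35 -0.0613 and Ugt2b36 -0.25, and Ugt2b5 -0.0227 against PCB 126. Ugt1a9 in the combined group stayed above 0 under every alternative run for the gene alone, from 0.92 with the GC slope covariate (adjusted p = 0.593) to 1.99, with adjusted p from 3.66e-06 in DESeq2 to 0.593, and the other alternatives that lost its call gave 1.57 without the 4 mice (adjusted p = 0.0623), 1.37 with the GC correction added (0.128) and 1.25 with the GC correction and without the adrenal libraries (0.0571). The cause of these changes was not tested beyond the construction of each alternative.

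Over 30 pairs of same-numbered mice in different groups the correlations of deviations were -0.24 to 0.71 (median 0.05). Of 20 mice 9 correlated best with their own number. What mice of the same number shared was not tested. With the replicate block 22 members were called in the combined group, 2 against Aroclor and 6 against PCB 126, and 0 in each of the other comparisons. Over all genes the block raised the number called from 0 to 26 with Aroclor, 18 to 101 with PCB 126 and 5089 to 5292 in the combined group. For the combined group against Aroclor the number rose from 64 to 475, against PCB 126 from 2589 to 3127, and for the interaction from 0 to 38. With 5 mice per group, changes of the size of the standard errors given could not be resolved.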
